A study of Mus musculus with 14 samples.

Results

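The heart receives sympathetic drive through adrenergic receptors and vagal restraint through muscarinic receptors, and 9 genes that carry these signals were followed here. They are the receptor genes Adrb1, Adra1a, Adra1b and Chrm2, the receptor kinase genes Grk2 and Grk5, the G protein gene Gnas and the adenylyl cyclase genes Adcy5 and Adcy6. They are named as the main cardiac genes of these pathways by a rule that uses no measured value. The choice was nevertheless made with earlier results of these data known. Each of the 9 matched 1 of the 55487 Ensembl gene identifiers counted. All 9 were among the 15528 genes that passed the filter on low counts. Per the labels, RNA was sequenced from whole hearts of untreated C57BL/6 males. The groups were p62 knockout (KO) hearts at 15 months (n = 4), wild-type (WT) hearts at 15 months (n = 4), KO hearts at 2 months (n = 3) and WT hearts at 2 months (n = 3). In KO hearts both copies of Sqstm1, which encodes the autophagy receptor p62, carry loxP sites (Sqstm1fl/fl) and Cre is expressed from the Myh6 promoter of cardiac muscle, so other heart cells keep the gene. The labels do not say whether WT mice carried Cre or loxP sites. Nor do they say which steps the hearts of a group shared, so the p-values here rest on the spread between these samples, part of which may be technical.

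Noradrenaline and adrenaline act on cardiac muscle mainly through the beta1 receptor, which couples to the stimulatory G protein. Its alpha subunit switches on adenylyl cyclase, cyclic AMP activates protein kinase A, and rate and force of contraction increase. Alpha1 receptors couple instead to the Gq family and phospholipase C, and the muscarinic M2 receptor, which responds to vagal acetylcholine, couples to inhibitory G proteins that restrain the cyclase and open an atrial potassium channel. Receptor kinases phosphorylate stimulated receptors, after which arrestins bind and the signal wanes.

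Total counts ranged from 20218992 to 30404416 per library, and 27.5% to 46.0% of them fell on mitochondrially encoded genes. Levels are given as CPM, the share of a TMM-scaled library total. The cardiac muscle markers Myh6, Tnnt2, Tnni3, Actc1 and Ryr2 were high in every library, with a summed level of 21434 to 32091 CPM in KO hearts at 15 months, 24290 to 34070 CPM in WT hearts at 15 months, 17612 to 27790 CPM in KO hearts at 2 months and 16205 to 24152 CPM in WT hearts at 2 months. Although the labels name whole hearts, the summed atrial marker level (Myl7, Myl4, Sln, Bmp10) was uneven. It was 109, 1.15, 2.50 and 1.18 CPM in KO hearts at 15 months and 148, 27.0, 1.95 and 48.9 CPM in WT hearts at 15 months. At 2 months it was 1.57, 2.04 and 1.46 CPM in KO hearts and 1270.1, 1.49 and 0.889 CPM in WT hearts. WT replicate 1 at 2 months thus stood apart, and many libraries held almost no atrial marker RNA. Levels of genes expressed in atria are to be read with this limit. Sqstm1 checked the labels: it was at 14.6, 37.0, 16.2 and 17.6 CPM in KO hearts at 15 months, against 208, 186, 238 and 173 CPM in WT hearts of that age, and at 15.2, 14.7 and 19.2 CPM in KO hearts at 2 months, against 177, 139 and 169.5 CPM in WT hearts of that age. Libraries also differed in their length slope, the regression of log2 CPM relative to the mean library on log2 exon length. The slope was -0.09 to 0.24 in KO hearts at 15 months, -0.07 to 0.12 in WT hearts at 15 months, -0.14 to -0.04 in KO hearts at 2 months and -0.18 to -0.01 in WT hearts at 2 months. It reached higher values at 15 months, though the ages overlapped in both genotypes.

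Divided by exon length, the 9 genes spanned a wide range of levels. Averaged over the 14 libraries, Gnas was at 55.4 ± 8.67 CPM per kilobase (SD), Chrm2 at 26.004 ± 3.89, Adcy6 at 19.3 ± 2.77, Adcy5 at 11.2 ± 2.08, Adra1b at 10.53 ± 1.97, Grk2 at 9.23 ± 1.05, Grk5 at 8.53 ± 2.49, Adrb1 at 5.10 ± 0.855 and Adra1a at 4.22 ± 0.956 CPM per kilobase. In this order, only Gnas and Chrm2, and Adcy6 and Adcy5, had ranges over the 14 libraries that did not overlap. Each of the other 6 neighbouring pairs overlapped, and Grk2 exceeded Grk5 in 7 of 14 libraries. Of the other receptors of these families, Adrb3, Adra2a, Adra2c, Chrm1, Chrm4 and Chrm5 did not pass the filter, with 9, 4, 80, 0, 15 and 1 counts over all 14 libraries.

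**Figure D1:**
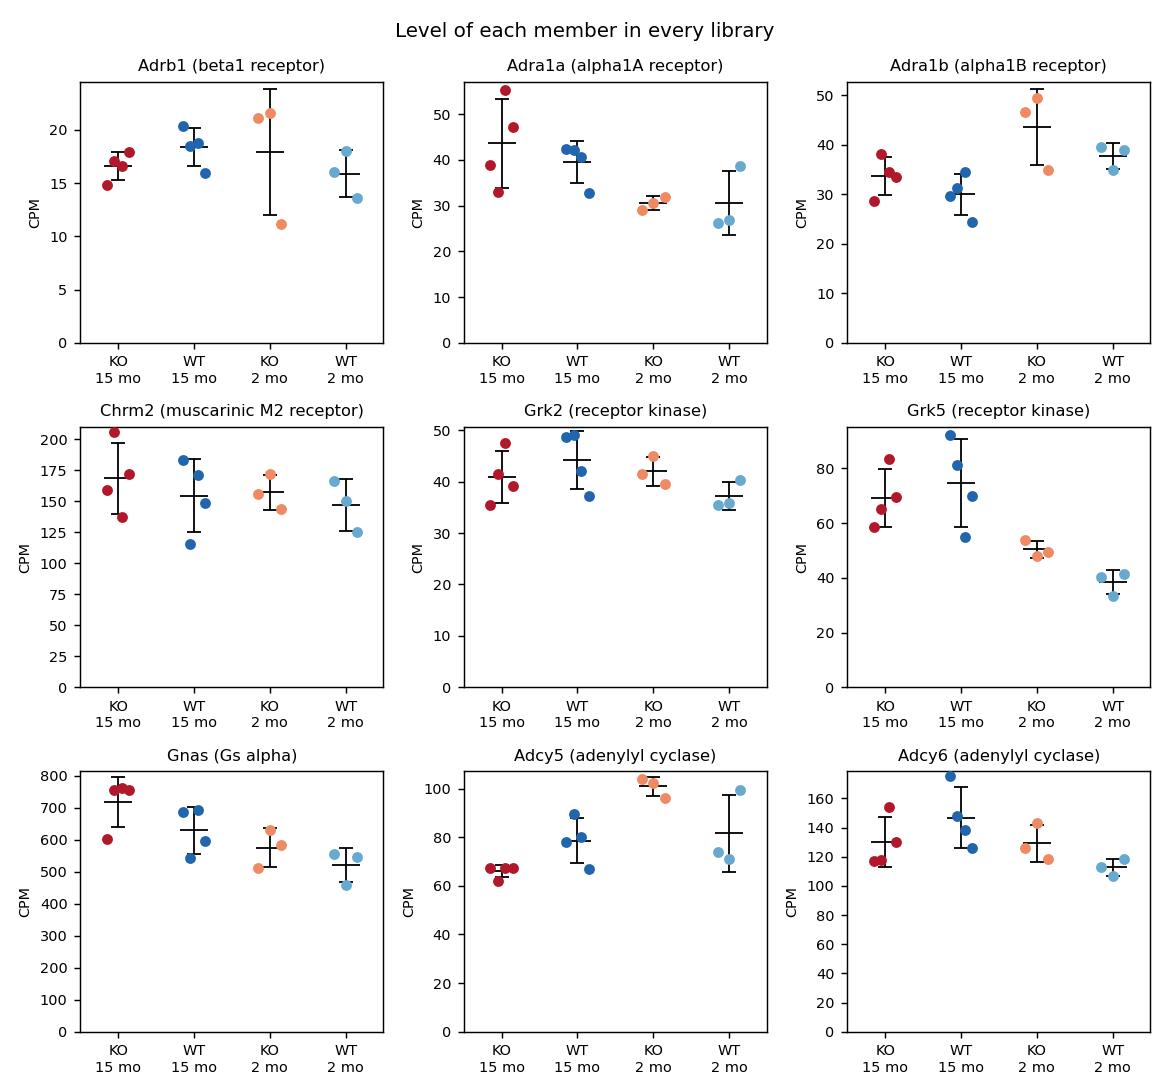
Level of each of the 9 genes in every library, in CPM on a linear axis that starts at 0, with 1 point per heart, the group mean (wide bar) and the SD (whiskers). KO and WT hearts at 15 months stand left of KO and WT hearts at 2 months. The Grk5 points of both 15-month groups lie above those of both 2-month groups, while the groups of Chrm2 and Adrb1 overlap throughout.

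Loss of p62 from cardiac muscle was compared first. None of the 9 genes passed the test between KO and WT hearts at 15 months, at 2 months or over both ages (edgeR quasi-likelihood test, Benjamini-Hochberg adjusted p of 0.999 or above). The only gene to pass among all 15528 was Sqstm1, so the share called was 0.00644% at 15 months, 0.00644% at 2 months and 0.00644% over both ages. At an unadjusted p under 0.05, 616 genes (3.97%), 494 genes (3.18%) and 506 genes (3.26%) were counted in these comparisons. DESeq2 called 7, 7 and 5 genes, none of them among the 9.

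At 15 months, the log2 fold changes of KO over WT hearts were small in both directions, 4 above 0 and 5 below, with a median of -0.11 beside 0.01 over all genes tested. The lowest was that of Adcy5, at -0.25 (SE 0.13), and the highest that of Gnas, at 0.19 (SE 0.14). For none of the 9 did the KO and WT hearts of that age lie in separate ranges, where 1.99% of all genes did. At 2 months 8 of the 9 lay above 0, with a median of 0.17 beside -0.0015 over all genes tested. Grk5 was at 53.8, 48.0 and 49.5 CPM in KO hearts at 2 months, against 40.4, 33.5 and 41.5 CPM in WT hearts of that age. All 3 KO values were above all 3 WT values, the only 1 of the 9 genes with such a separation, which 8.15% of all genes showed. Its log2 fold change was 0.39 (SE 0.18), which did not pass over all genes (unadjusted p = 0.0486 from the edgeR quasi-likelihood test across all genes). That of Adcy5 was 0.31 (SE 0.14), with overlapping groups. The 5 cardiac muscle markers had log2 fold changes of 0.16 to 0.32 in the same comparison, none past the threshold. Markers of several other cell types, though not of all, lay the other way, also with none past the threshold. All 5 fibroblast markers (-0.98 to -0.44), all 4 macrophage markers (-0.50 to -0.20), all 4 fat cell markers (-4.43 to -2.73), all 3 Schwann cell markers tested and 4 of 5 smooth muscle and pericyte markers were below 0. The summed endothelial markers overlapped, at 270, 316 and 261 CPM in KO hearts at 2 months, against 287, 232 and 242 CPM in WT hearts of that age. The summed skeletal muscle markers were at 2.83, 2.13 and 0.728 CPM in these KO hearts, against 0.814, 1.19 and 0.618 CPM in these WT hearts. WT replicate 1 at 2 months was the highest of the 14 libraries in the summed fibroblast (950 CPM), smooth muscle and pericyte (388 CPM) and fat cell (38.9 CPM) markers as well as the atrial ones. WT replicates 2 and 3 at 2 months had fibroblast sums of 556 and 376 CPM, against 396 to 490 CPM in KO hearts of that age. Their smooth muscle and pericyte sums were 148 and 169 CPM, below the 192 to 203 CPM of the KO hearts. Their fat cell sums were 0.537 and 0.696 CPM, against 0.576 to 1.92 CPM in the KO hearts. In the fibroblast, smooth muscle and pericyte, and fat cell lists the lower KO values thus rested largely on WT replicate 1. That library was also the highest of the 14 in the summed macrophage (77.5 CPM), Schwann cell (9.19 CPM) and pacemaker (39.7 CPM) markers. In WT replicates 2 and 3 at 2 months the macrophage sums were 66.9 and 55.3 CPM, against 52.8 to 58.7 CPM in KO hearts of that age. The Schwann cell sums of these WT replicates were 5.31 and 3.90 CPM, against 2.99 to 4.52 CPM, so both lists overlapped. Without WT replicate 1 at 2 months, 8 of the 9 genes again lay above 0, with a median of 0.20 and values of -0.10 to 0.43. The part of the other markers in the 2-month values was not tested. In bulk tissue, fewer cells of a type and less RNA per cell cannot be told apart.

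**Figure D2:**
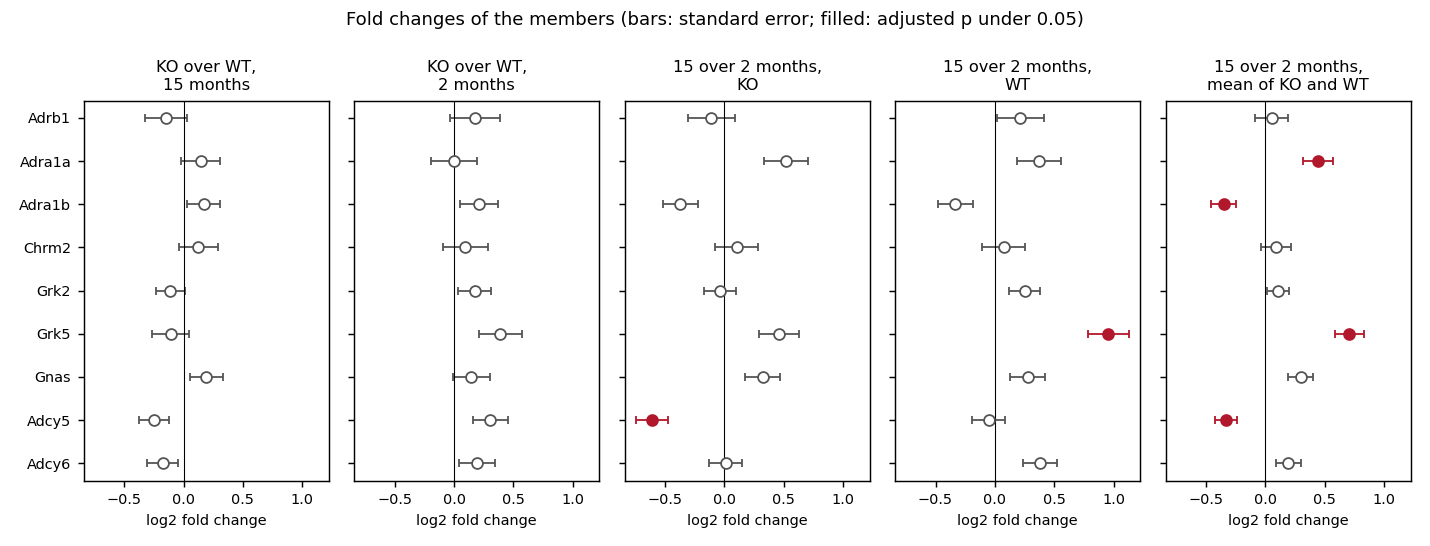
Log2 fold changes of the 9 genes in 5 comparisons, with their standard errors as bars, where values right of 0 are higher in KO hearts (first and second panels) or in 15-month hearts (the other panels). Filled points passed an adjusted p of 0.05 in edgeR's quasi-likelihood test. No point is filled in the KO panels, 1 is filled within each genotype for age, and 4 are filled for the mean of both genotypes.

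Between the ages, 4 of the 9 genes passed the test. Over the mean of both genotypes, Grk5 and Adra1a rose and Adra1b and Adcy5 fell in 15-month hearts relative to 2-month hearts, beside 23.9% of all genes called (10.8% higher, 13.1% lower). The median log2 fold change of the 9 was 0.11, beside 0.00059 over all genes tested. In KO hearts alone 1 of 9 was called, Adcy5, beside 2.25% of all genes, and in WT hearts alone 1 of 9, Grk5, beside 1.04%. Ranges of 15-month and 2-month hearts were separate for 3 of 9 genes in KO hearts (Adra1a, Grk5, Adcy5), where 20.1% of all genes were, and for 3 of 9 in WT hearts (Adra1b, Grk5, Adcy6), where 16.2% were. Markers of other cells moved with age in both directions. Of the endothelial markers, Pecam1, Cdh5 and Kdr rose in the mean of both genotypes, 3 of 4, and their summed level was 244 to 1024 CPM in KO hearts at 15 months, 258 to 433 CPM in WT hearts at 15 months, 261 to 316 CPM in KO hearts at 2 months and 232 to 287 CPM in WT hearts at 2 months. Of the cardiac muscle markers, 2 of 5 rose, Myh6 by a log2 fold change of 0.92 (SE 0.26) and Ryr2 by 0.87 (SE 0.25), and none fell. In edgeR the Myh6 call was lost without KO replicate 1, WT replicate 2 or WT replicate 3 at 2 months (adjusted p from 0.0502 to 0.0614), and that of Ryr2 without those libraries, KO replicate 3 at 2 months or WT replicate 1 at 15 months (adjusted p from 0.0511 to 0.0728). Both calls were also lost with the length slope as a covariate (Myh6 0.29, Ryr2 0.017), the replicate block and no filter on low counts. The endothelial calls were lost without single libraries too, Kdr without KO replicate 3 at 2 months, Cdh5 without KO replicate 1 or 3 or WT replicate 2 at 2 months, and Pecam1 without these 3, KO replicate 2 at 15 months or WT replicate 1 at 15 months (adjusted p from 0.0506 to 0.0737 in edgeR). All 3 were lost with the replicate block and the length slope as well, and Cdh5 and Kdr with no filter. Other marker lists held falls. Acta2, 1 of 5 smooth muscle and pericyte markers, fell by 1.14 on the log2 scale (SE 0.21), and Mylpf, the 1 skeletal muscle marker tested, by 1.99 (SE 0.35), and both calls held when any 1 of the 14 libraries was left out, that of Mylpf being lost with the length slope (adjusted p = 0.191 in edgeR). Acta2 and Mylpf also fell in KO hearts alone (-1.31 and -3.00). No atrial, fibroblast, macrophage, fat cell or Schwann cell marker passed between the ages. The part of these markers in the age differences was not tested.

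The sympathetic fibres that release noradrenaline have their cell bodies outside the heart. Dbh, which encodes the enzyme that makes noradrenaline from dopamine, was the only 1 of 6 nerve and ganglion markers that passed the filter. It was at 6.04, 1.67, 1.81 and 2.82 CPM in KO hearts at 15 months, at 1.48, 1.14, 1.20 and 1.14 CPM in WT hearts at 15 months, at 7.63, 7.003 and 4.81 CPM in KO hearts at 2 months and at 7.52, 8.30 and 4.64 CPM in WT hearts at 2 months. Every WT heart at 15 months lay below every 2-month heart, and 3 of the 4 KO hearts at 15 months did. The log2 fold change of 15 over 2 months was -1.77 (SE 0.27) over both genotypes, past the threshold (adjusted p = 0.00152 in edgeR's quasi-likelihood test after Benjamini-Hochberg adjustment). The call held when any 1 of the 14 libraries was left out and under every other setting tried (-2.04 to -1.26). At 15 months, all 4 KO hearts were above all 4 WT hearts, a separation that 1.99% of all genes showed. KO replicate 1 was at 6.04 CPM, against 1.67 to 2.82 CPM in the other 3 KO hearts. The log2 fold change was 1.28 (SE 0.37), and 0.74 to 1.49 with 1 of the 8 libraries left out. This comparison, chosen after its values were seen, did not pass over all genes (adjusted p = 0.999 in edgeR).

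Grk5 encodes a membrane-associated receptor kinase of cardiac muscle (ENSMUSG00000003228, GRCm38 chr19:60889749-61095968, plus strand). It was at 58.5, 65.3, 83.5 and 69.7 CPM in KO hearts at 15 months, at 92.3, 81.4, 54.9 and 69.96 CPM in WT hearts at 15 months, at 53.8, 48.0 and 49.5 CPM in KO hearts at 2 months and at 40.4, 33.5 and 41.5 CPM in WT hearts at 2 months. All 8 hearts at 15 months were above all 6 at 2 months, a separation found in 3.26% of all genes and in no other of the 9. The log2 fold change of 15 over 2 months was 0.71 (SE 0.12, adjusted p = 0.00334) over both genotypes, 0.46 (SE 0.17, adjusted p = 0.116) in KO hearts and 0.95 (SE 0.17, adjusted p = 0.0191) in WT hearts, all by edgeR's quasi-likelihood test (Benjamini-Hochberg adjusted). The difference between the age effects in KO and WT hearts was -0.50 (SE 0.24), short of the threshold. The call over both genotypes held when any 1 of the 14 libraries was left out (0.65 to 0.78), and was lost with the length slope as a covariate (0.57, adjusted p = 0.0708 in edgeR). The call in WT hearts was lost in edgeR without WT replicate 2 at 2 months (adjusted p = 0.121), WT replicate 3 at 2 months (adjusted p = 0.0522) or WT replicate 1 at 15 months (adjusted p = 0.0635), when only the WT groups were fitted (adjusted p = 0.0587) and with the replicate block (adjusted p = 0.0804). Of the 9 genes Grk5 had the widest spread over the 14 libraries, with an SD of log2 CPM of 0.43. Among 13190 protein-coding genes tested, the 3 whose centred log2 CPM lay closest to it over the 14 libraries were Pde4dip, Patj and Golga4, at root mean square differences of 0.14, 0.16 and 0.18.

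Grk2 encodes the other abundant cardiac receptor kinase (ENSMUSG00000024858, GRCm38 chr19:4286001-4306222, minus strand). It was at 35.5, 41.4, 47.6 and 39.2 CPM in KO hearts at 15 months, at 48.7, 49.0, 42.1 and 37.3 CPM in WT hearts at 15 months, at 41.5, 45.1 and 39.5 CPM in KO hearts at 2 months and at 35.5, 35.9 and 40.3 CPM in WT hearts at 2 months. The 4 groups overlapped. The log2 fold change of 15 over 2 months over both genotypes was 0.11 (SE 0.09), short of the threshold. Of the 9 genes it varied least, with an SD of log2 CPM of 0.16 over the 14 libraries.

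Adcy5 encodes one of the cyclase isoforms that predominate in cardiac muscle and are inhibited by calcium (ENSMUSG00000022840, GRCm38 chr16:35154877-35305738, plus strand). It was at 67.5, 62.2, 67.4 and 67.4 CPM in KO hearts at 15 months, at 77.9, 89.4, 80.1 and 66.97 CPM in WT hearts at 15 months, at 104, 102 and 96.3 CPM in KO hearts at 2 months and at 74.0, 71.1 and 99.6 CPM in WT hearts at 2 months. The 3 KO hearts at 2 months lay above all 4 KO hearts at 15 months, while the WT ages overlapped. With age, the log2 fold change (15 over 2 months) was -0.61 (SE 0.13, adjusted p = 0.0347) in KO hearts and -0.05 (SE 0.14, adjusted p = 0.84) in WT hearts, both by edgeR's quasi-likelihood test (Benjamini-Hochberg adjusted). The difference between these age effects, which equals that between the KO effects at 15 and 2 months, was -0.56 (SE 0.19), with an unadjusted p of 0.0111 and an adjusted p of 0.9999 in edgeR's quasi-likelihood test. In that comparison 0% of all genes passed, 577 genes (3.72%) had an unadjusted p under 0.05, and DESeq2 called 1 gene, none of the 9. The fall in KO hearts was lost as a call in edgeR without KO replicate 1 (adjusted p = 0.156), 2 (adjusted p = 0.0976) or 3 (adjusted p = 0.116) at 2 months, or without KO replicate 2 (adjusted p = 0.0957), 3 (adjusted p = 0.0906) or 4 (adjusted p = 0.0822) at 15 months, with log2 fold changes of -0.64 to -0.58 over all 7 such fits. The replicate block (adjusted p = 0.125), the atrial score as a covariate (adjusted p = 0.0603) and the length slope (adjusted p = 0.195) also ended this call in edgeR. Without KO replicate 1 at 15 months it was kept (adjusted p = 0.0127 in edgeR), and Grk5 (adjusted p = 0.0404) and Adra1a (adjusted p = 0.0468) then also passed in KO hearts. That library had the highest mitochondrial share, 46.0%. Over both genotypes the log2 fold change of Adcy5 was -0.33 (SE 0.10, adjusted p = 0.0245 in edgeR), a call lost without KO replicate 1 at 2 months (adjusted p = 0.0664) or WT replicate 3 at 2 months (adjusted p = 0.0741). It was also lost in edgeR with no filter on low counts (adjusted p = 0.0716), with the replicate block (adjusted p = 0.0914) and with the length slope as a covariate (-0.28, adjusted p = 0.324).

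The start regions of both genes were read because they were the only ones of the 9 called within a genotype. RefSeq start regions, 250 bases before to 50 after a start, were at hand for 6 of the 9 genes on GRCm38.p6, all but Adra1a, Grk2 and Adcy6. They were searched on both strands for TGACG, the short form of the element bound by cyclic AMP-responsive CREB factors, for its full palindrome TGACGTCA, which contains the short form, and for TGACNNNGC, which shares its first letters with both and is the core of the antioxidant response element bound by Nrf2, the factor named in the series title. Of 32851 mouse start regions in the table, 20.8% held TGACG, 1.79% the palindrome and 12.4% TGACNNNGC. The Adcy5 region is chr16:35154614-35154913 on the plus strand and the Grk5 region chr19:60889499-60889798 on the plus strand. Capitals mark the match to TGACNNNGC.
Adcy5: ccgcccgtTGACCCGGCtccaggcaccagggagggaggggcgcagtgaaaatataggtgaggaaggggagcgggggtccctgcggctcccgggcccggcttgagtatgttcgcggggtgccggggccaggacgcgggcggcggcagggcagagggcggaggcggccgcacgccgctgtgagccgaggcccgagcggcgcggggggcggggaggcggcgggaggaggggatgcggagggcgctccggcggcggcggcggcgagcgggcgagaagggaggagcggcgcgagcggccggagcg
Grk5: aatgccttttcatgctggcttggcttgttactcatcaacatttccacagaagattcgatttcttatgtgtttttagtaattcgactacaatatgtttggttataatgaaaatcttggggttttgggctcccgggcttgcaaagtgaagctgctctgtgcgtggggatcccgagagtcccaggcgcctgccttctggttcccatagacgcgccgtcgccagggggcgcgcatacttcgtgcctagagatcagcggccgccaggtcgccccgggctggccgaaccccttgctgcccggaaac
The Adcy5 region held 1 match to TGACNNNGC, whose first base lies 242 bases before the start site (position -242), and neither of the other 2 patterns. The Grk5 region held none of the 3. G and C made up 79.0% of the Adcy5 region and 54.3% of the Grk5 region. Among the other 4 genes with a region, TGACG occurred in that of Adrb1 and in 3 of the 4 regions listed for Gnas, of which 2 overlap almost wholly. These matches describe letters and not factor binding.

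Adcy6 encodes the other main cardiac cyclase isoform (ENSMUSG00000022994, GRCm38 chr15:98589973-98610076, minus strand). It was at 117, 118, 154 and 130.4 CPM in KO hearts at 15 months, at 175, 148, 138 and 126 CPM in WT hearts at 15 months, at 126, 143 and 118 CPM in KO hearts at 2 months and at 113, 107 and 118 CPM in WT hearts at 2 months. The KO ages overlapped, and all 4 WT hearts at 15 months were above all 3 at 2 months. Between ages, the log2 fold change of 15 over 2 months was 0.01 (SE 0.14) in KO hearts and 0.38 (SE 0.14, adjusted p = 0.146) in WT hearts, and neither passed edgeR's quasi-likelihood test after Benjamini-Hochberg adjustment.

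Gnas encodes the alpha subunit of the stimulatory G protein (ENSMUSG00000027523, GRCm38 chr2:174284320-174346744, plus strand). Its locus gives rise to several transcripts from alternative first exons, 24 in the annotation, which the counts pool. Gnas was at 602, 757, 763 and 754 CPM in KO hearts at 15 months, at 686, 543, 692 and 596 CPM in WT hearts at 15 months, at 513, 632 and 582 CPM in KO hearts at 2 months and at 555, 459 and 547 CPM in WT hearts at 2 months. The ages overlapped in both genotypes, and KO replicate 1 at 15 months lay well below the other 3 of its group. Its log2 fold change of 15 over 2 months over both genotypes was 0.30 (SE 0.11, adjusted p = 0.0522), just short of the threshold in edgeR's quasi-likelihood test after Benjamini-Hochberg adjustment. It passed with DESeq2 (adjusted p = 0.0116), with limma voom (adjusted p = 0.0472), with RLE scaling (adjusted p = 0.0486) and with a filter at a mean CPM of 1 (adjusted p = 0.0471). It also passed in edgeR without KO replicate 1 at 15 months (adjusted p = 0.0211), WT replicate 2 at 15 months (adjusted p = 0.0285) or WT replicate 1 at 2 months (adjusted p = 0.0483), while with the length slope as a covariate the change was 0.05 (adjusted p = 0.863 in edgeR).

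Adra1a and Adra1b encode the alpha1A and alpha1B receptors, both present in mouse cardiac muscle, and they moved in opposite directions with age. Adra1a (ENSMUSG00000045875, GRCm38 chr14:66635251-66771168, plus strand) was at 38.9, 32.9, 55.4 and 47.2 CPM in KO hearts at 15 months, at 42.4, 42.2, 40.7 and 32.7 CPM in WT hearts at 15 months, at 28.9, 30.5 and 32.0 CPM in KO hearts at 2 months and at 26.1, 26.8 and 38.6 CPM in WT hearts at 2 months. All KO hearts at 15 months were above those at 2 months, and the WT ages overlapped through WT replicate 3 at 2 months and WT replicate 4 at 15 months. As log2 fold changes, 15 over 2 months gave 0.44 (SE 0.13, adjusted p = 0.0259) over both genotypes, 0.52 (SE 0.18, adjusted p = 0.107) in KO hearts and 0.37 (SE 0.18, adjusted p = 0.232) in WT hearts by edgeR's quasi-likelihood test (Benjamini-Hochberg adjusted). The call over both genotypes was lost in edgeR without KO replicate 1 (adjusted p = 0.0689) or 3 (adjusted p = 0.0513) at 2 months, WT replicate 2 at 2 months (adjusted p = 0.0746) or WT replicate 1 at 15 months (adjusted p = 0.0531), and with the length slope as a covariate (0.36, adjusted p = 0.376).

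Adra1b (ENSMUSG00000050541, GRCm38 chr11:43774606-43901210, minus strand) was at 28.7, 38.2, 34.4 and 33.5 CPM in KO hearts at 15 months, at 29.6, 31.3, 34.5 and 24.4 CPM in WT hearts at 15 months, at 46.5, 49.4 and 34.9 CPM in KO hearts at 2 months and at 39.5, 34.8 and 39.0 CPM in WT hearts at 2 months. All WT hearts at 15 months were below those at 2 months, and the KO ages overlapped. With age, the log2 fold change (15 over 2 months) was -0.35 (SE 0.11, adjusted p = 0.0292) over both genotypes, -0.37 (SE 0.15, adjusted p = 0.137) in KO hearts and -0.33 (SE 0.15, adjusted p = 0.196) in WT hearts by edgeR's quasi-likelihood test (Benjamini-Hochberg adjusted). The call over both genotypes was lost in edgeR without KO replicate 1 (adjusted p = 0.0813) or 2 (adjusted p = 0.0742) at 2 months, without WT replicate 1 (adjusted p = 0.0505), 2 (adjusted p = 0.0519) or 3 (adjusted p = 0.0683) at 2 months, and without WT replicate 1 (adjusted p = 0.0545) or 4 (adjusted p = 0.0535) at 15 months. It was also lost with no filter on low counts (-0.33, adjusted p = 0.0676 in edgeR), with the replicate block (-0.31, adjusted p = 0.103 in edgeR) and with the length slope as a covariate (-0.50, adjusted p = 0.0756 in edgeR).

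The genes of the beta1 and M2 receptors did not pass the test in any comparison. Adrb1 (ENSMUSG00000035283, GRCm38 chr19:56722199-56733113, plus strand) was at 14.8, 17.1, 16.6 and 17.9 CPM in KO hearts at 15 months, at 20.3, 18.5, 18.8 and 15.96 CPM in WT hearts at 15 months, at 21.1, 21.6 and 11.1 CPM in KO hearts at 2 months and at 16.1, 18.0 and 13.6 CPM in WT hearts at 2 months. The KO hearts at 2 months spanned both the highest and the lowest of the 14 values. Chrm2 (ENSMUSG00000045613, GRCm38 chr6:36388084-36528414, plus strand) was at 159, 205, 137 and 172 CPM in KO hearts at 15 months, at 183, 115, 171 and 148 CPM in WT hearts at 15 months, at 156, 171 and 144 CPM in KO hearts at 2 months and at 166, 149.9 and 125 CPM in WT hearts at 2 months. All 4 groups overlapped for both receptors. Over both genotypes the log2 fold change of 15 over 2 months was 0.05 (SE 0.14) for Adrb1 and 0.09 (SE 0.13) for Chrm2, and both turned below 0 with the length slope as a covariate (-0.03 and -0.09).

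Ratios within a library do not depend on its scaling, so the paired isoforms were set against each other per exon length. The log2 ratio of Adcy5 to Adcy6 was -0.88, -1.01, -1.28 and -1.03 in KO hearts at 15 months, -1.25, -0.81, -0.87 and -0.99 in WT hearts at 15 months, -0.36, -0.57 and -0.38 in KO hearts at 2 months and -0.70, -0.67 and -0.33 in WT hearts at 2 months. All 8 hearts at 15 months were below all 6 at 2 months. How common such a separation is among ratios of other gene pairs was not counted, for this ratio or those below. The exon lengths of Adcy5 and Adcy6 are close, at 7184 and 6782 bases. The difference of 15 minus 2 months was -0.61 in KO hearts and -0.41 in WT hearts, each with an exact two-sided permutation p of 0.0571, the smallest that 4 against 3 hearts allow (0.183 after Benjamini-Hochberg adjustment over the 16 ratio tests).

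The log2 ratio of Grk5 to Grk2 was 0.07, 0.00014, 0.16 and 0.17 in KO hearts at 15 months, 0.27, 0.08, -0.27 and 0.25 in WT hearts at 15 months, -0.28, -0.57 and -0.33 in KO hearts at 2 months and -0.47, -0.75 and -0.61 in WT hearts at 2 months. Again all 15-month hearts were above all 2-month hearts, WT replicate 3 at 15 months only narrowly. The difference of 15 minus 2 months was 0.49 in KO hearts and 0.69 in WT hearts, each with an exact permutation p of 0.0571 (0.183 adjusted over the 16 tests). The log2 ratio of Adra1a to Adra1b averaged -1.02 ± 0.39 in KO hearts at 15 months, -0.97 ± 0.12 in WT hearts at 15 months, -1.87 ± 0.33 in KO hearts at 2 months and -1.70 ± 0.30 in WT hearts at 2 months (SD). The ages were separate in WT hearts (difference 0.73, exact permutation p = 0.0571, adjusted 0.183) and overlapped in KO hearts through KO replicate 2 at 15 months (difference 0.85, exact permutation p = 0.114, adjusted 0.305). The exon length of Grk5 is 7055 bases and that of Grk2 4476, and the lengths of Adra1a and Adra1b are 8728 and 3382. In both pairs the longer gene thus gained relative to the shorter in the older hearts, in which the length slope reached higher values. For single genes over both genotypes, the length slope as a covariate gave age log2 fold changes of 0.36 for Adra1a and -0.50 for Adra1b, against 0.44 and -0.35 without it. Those of Grk5 and Grk2 were 0.57 and -0.0016, against 0.71 and 0.11. The ratios were not fitted with this covariate, and the part of the length slope in them was not tested.

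**Figure D3:**
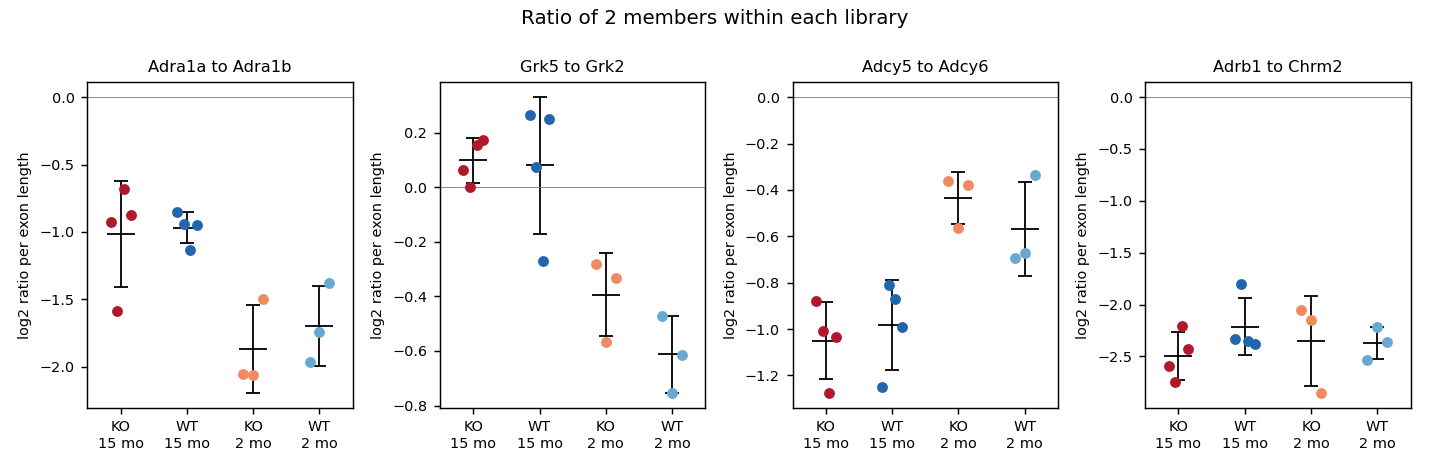
Log2 ratio of paired genes per exon length within each library, with 1 point per heart, the group mean (wide bar) and the SD (whiskers); the grey line marks equal levels per length. The Adcy5 to Adcy6 points of 15-month hearts all lie below those of 2-month hearts, the Grk5 to Grk2 points all lie above, and the Adrb1 to Chrm2 points of the 4 groups overlap.

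The balance of beta1 to M2 receptor transcripts, the log2 ratio of Adrb1 to Chrm2 per exon length, averaged -2.49 ± 0.23 in KO hearts at 15 months, -2.21 ± 0.28 in WT hearts at 15 months, -2.35 ± 0.44 in KO hearts at 2 months and -2.37 ± 0.16 in WT hearts at 2 months (SD). It did not separate any groups (exact permutation p of 0.2 to 1 over its 4 tests). None of the 4 ratios separated KO from WT hearts at 15 or at 2 months, where the exact permutation p ran from 0.2 to 1, against a smallest possible 0.0286 for 4 against 4 hearts and 0.1 for 3 against 3.

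The wider pathway was read from 76 other genes, of which 68 passed the filter. None was called between KO and WT hearts at either age or over both, nor between the ages within either genotype. Between 15 and 2 months over both genotypes, 10 of 68 rose and 6 fell, beside the 23.9% of all genes called. At an unadjusted p under 0.05 there were 3 of the 68 between KO and WT hearts at 15 months, beside 3.97% of all genes. At 2 months there were 3, beside 3.18% of all genes, and over both ages 1, beside 3.26%. Between the ages there were 20 of the 68 in KO hearts, beside 26.7% of all genes, and 18 in WT hearts, beside 23.8%, both shares of the list being near those over all genes.

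Among 14 G protein subunits, Gng7, a gamma subunit, rose most with age. It was low throughout, at 1.24, 1.36, 0.753 and 0.505 CPM in KO hearts at 15 months, 0.896, 1.67, 1.53 and 1.44 CPM in WT hearts at 15 months, 0.303, 0.532 and 0.404 CPM in KO hearts at 2 months and 0.349, 0.418 and 0.464 CPM in WT hearts at 2 months. KO replicate 4 at 15 months lay below KO replicate 2 at 2 months, and every other 15-month heart was above every 2-month heart. The log2 fold change was 1.47 (SE 0.28, adjusted p = 0.00573 in edgeR's quasi-likelihood test after Benjamini-Hochberg adjustment), and the call held under each of the 22 alternatives in which the gene was tested, which include the 14 left-out libraries and the length slope. The filter at a mean CPM of 1 removed it. Gng5, another gamma subunit, fell by 0.51 on the log2 scale (SE 0.16), and Gnai1, an inhibitory alpha subunit, fell by 0.63 (SE 0.21). The 6 other adenylyl cyclases tested had 1 call, Adcy8, a calcium-stimulated isoform. Adcy8 was at 1.78, 1.32, 1.87 and 1.85 CPM in KO hearts at 15 months, 2.00, 2.16, 1.59 and 1.03 CPM in WT hearts at 15 months, 1.06, 0.709 and 0.809 CPM in KO hearts at 2 months and 0.969, 0.716 and 0.966 CPM in WT hearts at 2 months. Its ages overlapped by WT replicate 4 at 15 months and KO replicate 1 at 2 months, and its log2 fold change was 0.96 (SE 0.22, adjusted p = 0.0102 in edgeR).

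RGS proteins speed the shutdown of G protein signals. Of 8 tested, 3 fell with age over both genotypes, Rgs2 (log2 fold change -0.78, SE 0.19), which acts on the Gq family, Rgs10 (-0.93, SE 0.26) and Rgs14 (-0.96, SE 0.33), and Rgs3 rose (0.34, SE 0.12). The median of the 8 was -0.45, beside 0.00059 over all genes. Rgs2 averaged 27.3 ± 5.09 CPM in KO hearts at 15 months, 22.8 ± 5.80 CPM in WT hearts at 15 months, 51.8 ± 17.6 CPM in KO hearts at 2 months and 35.3 ± 13.9 CPM in WT hearts at 2 months (SD). Of 20 cyclic AMP effectors and anchors, 5 rose and 1 fell. Those that rose included Rapgef4, the cyclic AMP-activated exchange factor Epac2 (0.43, SE 0.09), and the kinase-anchoring proteins Akap9 (0.75, SE 0.18), Akap6 (0.50, SE 0.12) and Akap13 (0.44, SE 0.13). The other 2 calls of this list, named after their values were seen, were Prkacb, a catalytic subunit of protein kinase A (0.34, SE 0.11), and Popdc3, a cyclic AMP-binding membrane protein (-0.47, SE 0.16). Among 9 effectors of alpha1 receptors 1 rose, the phospholipase gene Plcb3 (0.71, SE 0.19), and among 5 other receptor kinases and arrestins 1 rose, the beta-arrestin gene Arrb1 (0.50, SE 0.16).

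These pathway calls depended on single libraries to different degrees, by edgeR's quasi-likelihood test (Benjamini-Hochberg adjusted). Gng7, Adcy8, Rgs2, Rapgef4, Akap9 and Akap6 kept theirs when any 1 of the 14 libraries was left out. Of the 14 calls named by rule, the replicate block kept 4, those of Gng7, Adcy8, Rgs2 and Rapgef4, and the atrial score as a covariate kept 9. Akap9 and Akap6 were lost under the block (adjusted p = 0.0569 and 0.0549). Those of Rgs10 and Plcb3 were lost without KO replicate 1 at 2 months (adjusted p = 0.059 and 0.0545) or WT replicate 2 at 2 months (adjusted p = 0.0692 and 0.0557), and that of Akap13 without the same libraries (adjusted p = 0.0738 and 0.0728) or WT replicate 1 at 15 months (adjusted p = 0.0524). Arrb1 kept its call only without KO replicates 1 or 4 at 15 months, WT replicates 2 or 4 at 15 months, KO replicate 2 or WT replicate 1 at 2 months, and lost it without any of the other 8 libraries (adjusted p from 0.0634 to 0.0976). Gng5 kept its call only without KO replicate 1 or WT replicates 2 or 3 at 15 months, KO replicate 2 or WT replicate 1 at 2 months, and lost it in the other 9 cases (adjusted p from 0.0576 to 0.0896). Gnai1 kept its call only without KO replicate 1 or WT replicate 3 at 15 months or WT replicate 3 at 2 months, and lost it in the other 11 cases (adjusted p from 0.0537 to 0.113). Rgs14 kept its call only without KO replicate 2 or WT replicate 3 at 15 months or KO replicate 2 at 2 months, and lost it in the other 11 cases (adjusted p from 0.0511 to 0.136). Rgs3 kept its call only without KO replicate 1 at 15 months or WT replicate 1 at 2 months, and lost it in the other 12 cases (adjusted p from 0.051 to 0.128). Prkacb kept its call only without KO replicate 1 or WT replicate 2 at 15 months or WT replicate 1 at 2 months, and lost it in the other 11 cases (adjusted p from 0.0629 to 0.121). Popdc3 kept its call only without those libraries or KO replicate 2 at 2 months, and lost it in the other 10 cases (adjusted p from 0.0672 to 0.157). With the length slope as a covariate, of the 16 pathway calls that of Gng7 was kept (1.69, adjusted p = 0.0318 in edgeR), the other 15 were lost, and Arrb1 turned to -0.015 and Prkacb to -0.0082.

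**Figure D4:**
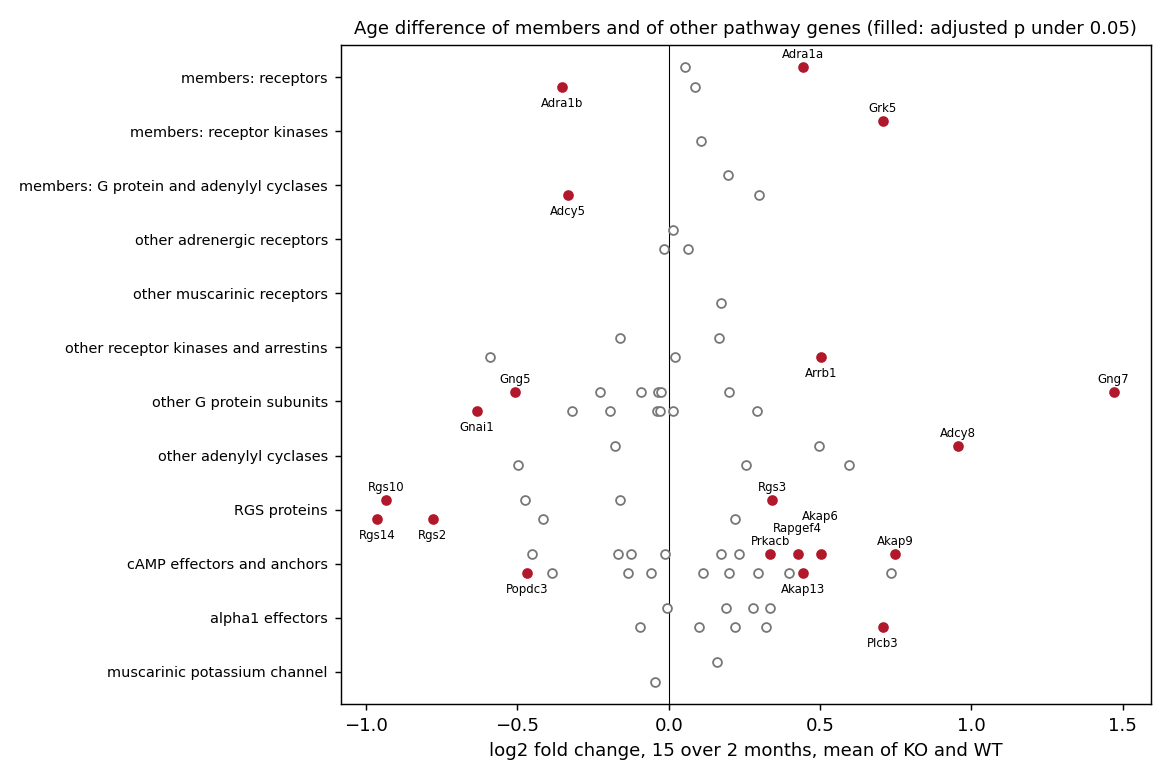
Log2 fold change of 15 over 2 months, mean of KO and WT hearts, for the 9 genes and the 68 other pathway genes tested, grouped by role, with values right of 0 higher in 15-month hearts. Filled, labelled points passed an adjusted p of 0.05. Calls lie on both sides of 0, with Gng7 farthest to the right and Rgs14 and Rgs10 farthest to the left.

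No gene passed in any comparison among the other 3 adrenergic receptors tested, the 1 other muscarinic receptor tested and the 2 subunits of the muscarinic potassium channel. The smallest unadjusted p of each list belonged to the following. Adra2b, an alpha2 receptor gene, was at 0.202, 0.532 and 0.687 CPM in KO hearts at 2 months, against 1.40, 1.31 and 0.696 CPM in WT hearts of that age, a log2 fold change of -1.22 (SE 0.46). The highest KO value lay just under the lowest WT value. Chrm3, the muscarinic M3 receptor gene, averaged 0.601 ± 0.184 CPM in KO hearts at 2 months and 0.820 ± 0.268 CPM in WT hearts of that age (SD, n = 3 each). Kcnj3, a subunit of the muscarinic potassium channel, was at 122, 110.2, 89.7 and 131 CPM in KO hearts at 15 months, against 89.0, 91.9 and 82.1 CPM in KO hearts at 2 months, a log2 fold change of 0.37 with overlapping groups.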

How the data were processed

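RNA was total RNA from whole hearts, and the library kit was stranded with removal of ribosomal RNA, per the labels. The authors deposited raw counts per Ensembl gene for 14 libraries. Cutadapt 1.16, STAR 2.7.3a, featureCounts 1.6.3, DESeq2 1.26.0 and the build GRCm38 are named, per the submitters' processing notes. How strand and multiply mapped reads were handled in counting is not stated there. Chrm2, Gnas and Adcy6 share exon bases with genes on the opposite strand (at most 142, 1469 and 605 bases with 1 gene), and their counts could hold such reads.

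Symbols, positions and exon lengths (union of exons) came from GENCODE M21 on GRCm38. The tests used edgeR 4.0.16 (R 4.3.3), with filterByExpr over the 4 groups (count 10, total 15), TMM scaling, a robust quasi-likelihood fit with 1 mean per group over all 14 libraries, and Benjamini-Hochberg adjustment over 15528 genes, called under an adjusted p of 0.05. SE is the log2 fold change divided by the square root of F. Ratios were compared by exact two-sided permutation tests (scipy 1.17.1). The fit was tested on simulated counts. Alternatives were RLE scaling, other filters, DESeq2 1.42.0, limma 3.58.1 voom, fewer groups, a replicate block, covariates, no mitochondrial genes and left-out libraries. Those for Prkacb, Popdc3, Dbh and the called muscle and endothelial markers were added after seeing the data. The 9 genes, the pathway lists and the tests were chosen with earlier results of these data known. From each pathway list up to 4 called genes by smallest p were named, or, with none called in any comparison, the gene with the smallest p. No 2 libraries agreed within sampling noise (lowest chi-square per degree of freedom 17.9). The reads carry no molecular identifiers. Some items are not reported here.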

Additional observations from a re-analysis of the deposited data

Results flagged for a closer look

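Of 62 groups of 4 hearts examined, 7 held a heart that lay far from the other 3, where chance gives about 1 in 20. In KO hearts at 15 months, replicate 2 had Sqstm1 at 37.0 CPM, against 14.6 to 17.6 CPM in the other 3. The same heart had Adcy5 at 62.2 CPM, against 67.4 to 67.5 CPM, and Adcy8 at 1.32 CPM, against 1.78 to 1.87 CPM. KO replicate 1 at 15 months had Gnas at 602 CPM, against 754 to 763 CPM in the other 3 of its group, and Rgs10 at 7.77 CPM, against 2.98 to 3.06 CPM. In WT hearts at 15 months, replicate 2 had Plcb3 at 8.26 CPM, against 14.1 to 15.2 CPM, and a log2 ratio of Adrb1 to Chrm2 of -1.80, against -2.38 to -2.33.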

How the results depend on the processing

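Replicate numbers did not mark a shared source in the labels. The deviations of same-numbered libraries from their group means had correlations of -0.44 to 0.32. The same-numbered library was the closest match in some cases and not in others, so a shared source was neither shown nor excluded. With a replicate block the age calls among the 9 genes were 0 in KO hearts, 0 in WT hearts and 2 over both genotypes, and all genes called were 70, 55 and 1365. The block changed no call between KO and WT hearts among the 9.

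None of the 9 genes was called between KO and WT hearts under any alternative. Genes called at 15 months numbered 1, against 7 with DESeq2, 2 with only the groups compared and 1 to 3 with 1 library left out. At 2 months they numbered 1, against 3 with no filter, 2 with a filter at a mean CPM of 1, 7 with DESeq2 and 5 with the length slope, and over both ages 1, against 5 with DESeq2. For age in KO hearts 349 genes were called, against 1622 with DESeq2, 134 with only the groups compared, 174 with the atrial score, 86 with the length slope and 49 to 3523 with 1 library left out, and 1 of the 9, against 0 with the atrial score, 0 with the length slope and 0 to 3 with 1 library left out. For age in WT hearts 161 genes were called, against 1100 with DESeq2, 86 with only the groups compared, 86 with the atrial score and 38 to 511 with 1 library left out, and 1 of the 9, against 0 with only the groups compared and 0 to 1 with 1 library left out. For age over both genotypes 3712 were called, against 214 with the length slope and 1531 to 5589 with 1 library left out, and 4 of the 9, against 2 with no filter, 0 with the length slope and 1 to 5 with 1 library left out. For the difference between KO effects 0 were called, against 1 with DESeq2 and 0 to 1 with 1 library left out.

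Changes of sign concerned small values that passed no threshold, Arrb1, Prkacb, Pecam1 and Cdh5 excepted. KO over WT at 2 months, Adra1a turned to 0.00072 with no filter, 0.018 with voom and 0.019 with the block, with -0.099 to 0.22 over left-out libraries. KO over WT over both ages, Adrb1 turned to -0.011 with voom, -0.0071 with the atrial score and -0.0010 with the length slope (-0.063 to 0.14 over left-out libraries), Grk2 to -0.0016 with the atrial score (-0.0051 to 0.073), Adcy5 to -0.0044 with the atrial score (-0.015 to 0.12) and Adcy6 to -0.017 with the length slope (-0.034 to 0.057). With the length slope, Chrm2 turned to -0.088 for age in KO hearts (-0.0069 to 0.20 over left-out libraries), -0.083 in WT hearts (-0.020 to 0.19) and -0.085 over both, Adcy6 to -0.16 in KO hearts (-0.077 to 0.089), Adrb1 to -0.026 over both (-0.073 to 0.13), Grk2 to -0.0016 over both, Arrb1 to -0.015 over both, Prkacb to -0.0082 over both, Pecam1 to -0.050 over both and Cdh5 to -0.17 over both. In the difference of KO effects Chrm2 turned to -0.0053 (-0.087 to 0.12) and Gnas to -0.023 (-0.033 to 0.13). For age in KO hearts Grk2 turned to 0.0097 with the block (-0.11 to 0.025) and Adcy6 to -0.00085 with a filter at a mean CPM of 1. Leaving out libraries alone turned Adcy5 for age in WT hearts (-0.14 to 0.14), Adrb1 for age in KO hearts (-0.36 to 0.048), Grk5 for KO over WT at 15 months (-0.22 to 0.011), and Adra1a (-0.072 to 0.26) and Adra1b (-0.18 to 0.059) in the difference of KO effects. Among ratios it turned those of KO over WT at 15 months for Adcy5 to Adcy6 (-0.16 to 0.0075), Adra1a to Adra1b (-0.16 to 0.14) and Grk5 to Grk2 (-0.099 to 0.080), and those of Adrb1 to Chrm2 for KO over WT at 2 months (-0.13 to 0.27) and for age in KO hearts (-0.39 to 0.0078). The causes were not tested. Groups of 3 or 4 hearts limit what can be called.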
